A study of Homo sapiens with 12 samples.

Results

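The genes described here are 7 metallothioneins (MT2A, MT1E, MT1F, MT1G, MT1H, MT1M and MT1X), the zinc exporter gene SLC30A1 and MTF1, which codes for the metal-sensing transcription factor that switches the others on. They were taken by symbol from the probe sets that carry 1 gene symbol, which gave 17 probe sets for the 9 genes. Each gene was represented by its brightest probe set, judged by mean log2 signal on the 11 arrays compared, and the 9 were among 19775 genes tested. RNA of 12 samples labelled PC3, an established prostate cancer cell line grown in medium with 10% serum, was hybridised to Affymetrix 3-prime expression arrays. The 4 groups had 3 arrays each: a control, 2.5 µM Wee1 inhibitor II, 40 nM 17-AAG, and the combination of the drugs at these doses. Wee1 inhibitor II blocks the kinase that keeps CDK1 inactive until mitosis, and 17-AAG blocks the chaperone Hsp90. 17-AAG came 24 h after Wee1 inhibitor II and cells were collected 48 h after 17-AAG, while the controls, labelled as untreated, received vehicle by the protocol. Control replicate 2 was removed by the submitters for weak signal, so control stands on 2 arrays. By its title the study asked whether blocking Wee1 makes these cells more sensitive to an Hsp90 inhibitor.

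Metallothioneins are small, cysteine-rich proteins that bind zinc and copper ions and, on exposure, cadmium. Their genes are induced when free zinc rises: MTF1 then moves to the nucleus and binds short promoter sequences called metal response elements. SLC30A1, also named ZnT1, moves zinc out across the cell surface and is itself a target of MTF1, so that a zinc load typically raises metallothioneins and SLC30A1 together. Metallothionein genes also answer to glucocorticoids and other stresses, and the functional ones sit side by side on chromosome 16.

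Promoters show where MTF1 could bind, and the RefSeq table (build GRCh38.p14) held them for 5 of the 9 genes: MT2A, MT1X, MT1H, SLC30A1 and MTF1. The 250 bases before the transcript start were searched on both strands for the metal response element core in its forms TGCACNC and TGCGCNC. The 4 promoters with a match are printed: those of MT2A, MT1X and MT1H, which rose with Wee1 inhibitor II below, and that of SLC30A1, which did not. A link between matches and changes was not tested. Capitals mark the matches, none of which overlapped another, and each line runs 5′ to 3′ on the gene's strand. MT2A is at chr16:56608334-56608583 (plus strand), MT1X at chr16:56682220-56682469 (plus), MT1H at chr16:56669564-56669813 (plus) and SLC30A1 at chr1:211579162-211579411 (minus).
MT2A: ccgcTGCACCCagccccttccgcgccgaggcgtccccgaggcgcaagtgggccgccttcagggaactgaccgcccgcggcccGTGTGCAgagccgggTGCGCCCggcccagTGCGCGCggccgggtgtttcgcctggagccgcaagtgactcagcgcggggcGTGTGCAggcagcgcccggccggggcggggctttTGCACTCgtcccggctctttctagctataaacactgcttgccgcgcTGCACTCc
MT1X: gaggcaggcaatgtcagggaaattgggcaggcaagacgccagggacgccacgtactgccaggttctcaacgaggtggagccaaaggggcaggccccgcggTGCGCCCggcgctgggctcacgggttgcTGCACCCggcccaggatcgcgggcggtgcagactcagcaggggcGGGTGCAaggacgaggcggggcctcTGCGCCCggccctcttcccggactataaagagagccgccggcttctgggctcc
MT1H: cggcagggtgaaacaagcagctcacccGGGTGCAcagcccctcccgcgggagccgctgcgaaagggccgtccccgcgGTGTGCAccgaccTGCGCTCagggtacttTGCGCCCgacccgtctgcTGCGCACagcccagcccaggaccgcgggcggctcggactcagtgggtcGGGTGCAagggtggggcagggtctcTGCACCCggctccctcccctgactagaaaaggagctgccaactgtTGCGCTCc
SLC30A1: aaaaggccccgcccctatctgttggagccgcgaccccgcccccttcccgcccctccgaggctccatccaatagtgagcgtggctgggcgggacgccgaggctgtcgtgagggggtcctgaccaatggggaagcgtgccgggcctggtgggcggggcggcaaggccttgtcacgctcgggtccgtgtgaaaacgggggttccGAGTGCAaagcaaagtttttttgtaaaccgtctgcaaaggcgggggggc
MT2A held 7 matches, 5 on the gene's strand and 2 on the other, and MT1H held 8, of which 3 lay on the other strand. MT1X held 4 matches and SLC30A1 held 1. Over all 35116 promoters of the table, 24.8% had at least 1 match in the same window, 0.37% at least 4, 0.0313% at least 7 and 0.0171% at least 8. The MTF1 window held no match. Such a match is a stretch of letters and not a measured binding site.

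**Figure D1:**
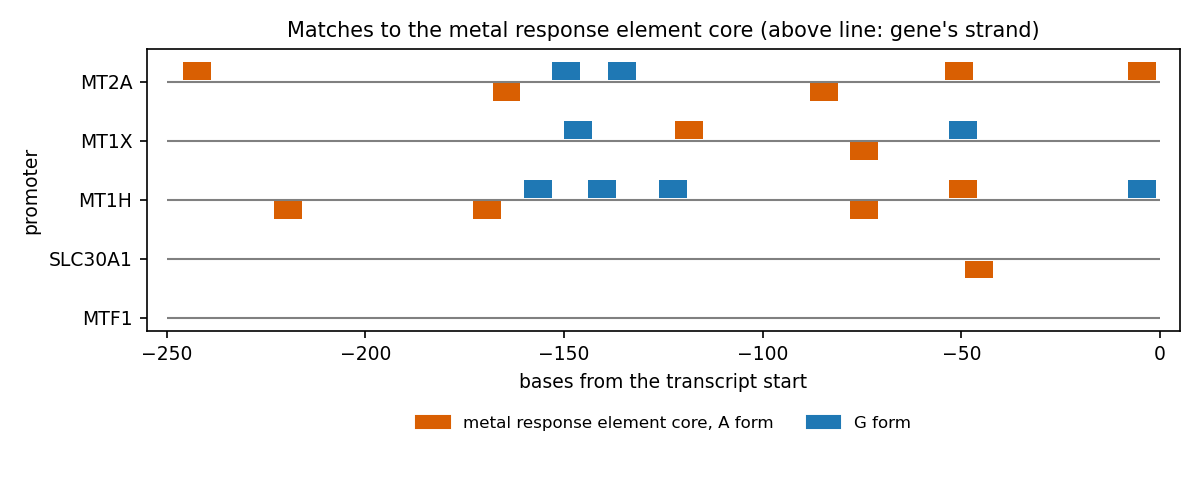
Matches to the metal response element core in the 250 bases before the start of 5 genes, with distance from the transcript start on the horizontal axis, boxes above the line for the gene's strand and below it for the other strand, and colour for the A form and the G form. MT2A has 7 boxes, MT1X 4, MT1H 8, SLC30A1 1 and MTF1 none.

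The 11 arrays compared resembled each other (Pearson's r of log2 signals at least 0.912 for any pair), and control replicate 2 stood apart (0.824 to 0.832 with the 11 others). The signal is the deposited linear intensity of a probe set, and the array medians were 17.6 to 23.0. Some markers went against the PC3 label on the 11 arrays. PC3 is known to have lost both copies of CTNNA1 and of STAT3, whose signals summed to 3468 to 6278 on the 11 arrays and to 9.11 on control replicate 2. All 7 measured pigment cell markers lay above the array median on the 11 arrays, and their summed signal was 26137 to 49448 there against 362 on control replicate 2. Of 8 epithelial and prostate markers, HOXB13 lay below the array median on all 11 arrays and EPCAM on 9, against 2087 and 1096 on control replicate 2. KRT19, CDH1 and CLDN4 were below the median on all 11 arrays, and on control replicate 2 they lay within the range of those arrays. KRT8, KRT18 and ESRP1 were above the median on all 11, with ESRP1 at 142 to 728 against 48.5 on control replicate 2. The 8 summed to 669 to 1363, against 6100 on control replicate 2. Of 6 fibroblast markers COL3A1 and PDGFRB lay below the median on all 11 arrays, COL1A2 on 9 and DCN on 8. COL1A1 and LUM lay above it on all 11, and the sum, mostly LUM, was 430 to 1925. The 4 measured blood cell markers summed to 55.4 to 89.5, and of these HBB (37.6 to 55.2) lay above the median on all 11 arrays. DNAJB1, a heat shock gene that Hsp90 inhibitors usually induce, fell with 17-AAG (-1.22 ± 0.09, SE of the log2 fold change, adjusted p = 0.000375). Its signals were 1186 and 1197 in control, 685 to 754 with Wee1 inhibitor II, 480 to 564 with 17-AAG and 874 to 908 with both drugs. So DNAJB1 was higher with both drugs than with the inhibitor alone. It is 1 gene added after seeing the data, and each sign of a comparison with the arrays labelled 17-AAG rests on the labels. Nothing says that replicates were separate cultures, so p-values measure only the spread between these samples.

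In the RefSeq table the chromosome 16 cluster runs from MT2A through MT1L, MT1E, MT1M, MT1JP, MT1A, MT1DP, MT1CP, MT1B, MT1F, MT1G, MT1H and MT1IP to MT1X, and its genes are alike enough to share probes. Of the 11 metallothionein probe sets 9 have names ending in _x_at, the maker's mark for probes that also match related transcripts, and these include the main probe sets of MT2A, MT1E, MT1F, MT1G, MT1H and MT1X. No probe set carried a member's symbol together with another gene's. The second probe set listed as MT1X rests on a RefSeq transcript that the RefSeq table gives to MT1L, a neighbouring pseudogene. The probe sets without that ending, the only one of MT1M and the second of MT1G, lay below the array median on all 11 arrays, with signals of at most 7.66 and 8.65. So the 6 brighter metallothioneins may not have been measured independently, and a change named for 1 of them can include its relatives. Across the 11 arrays their log2 signals followed MT2A with Pearson's r of 0.842 (MT1F) to 0.997 (MT1X), a description over arrays that share 4 groups.

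Metallothionein signal rose with Wee1 inhibitor II alone. In that comparison 5 of the 9 members rose and none fell, where 24.9% of all 19775 genes were called, 14.5% rising and 10.3% falling (limma, adjusted p under 0.05 over all genes). The risers were MT2A, MT1X, MT1H, MT1G and MT1E, and the median log2 fold change of the 7 metallothioneins was 1.06 against 0.12 for all genes. With both drugs, none of the 6 brighter metallothioneins was called above control. In such bulk RNA fewer cells with a transcript and less of it per cell cannot be told apart.

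MT2A, the most widely expressed human metallothionein, had signals of 1486 and 1591 on the control arrays. It had 3285, 4044 and 3473 with Wee1 inhibitor II, 1213, 1271 and 1113 with 17-AAG, and 1197, 1282 and 1251 with both drugs. The Wee1 inhibitor II arrays were thus above all others, and the 17-AAG and combination arrays overlapped each other and lay below both controls. The log2 fold change against control was 1.22 ± 0.11 (SE, adjusted p = 0.000222), a rise of 2.33-fold. With both drugs MT2A fell by 1.53 ± 0.10 on the log2 scale from its level with Wee1 inhibitor II alone (adjusted p = 4.71e-05).

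MT1X had signals of 892 and 967 in control and 1948, 2452 and 1990 with Wee1 inhibitor II. With 17-AAG they were 712, 730 and 594, and with both drugs 656, 723 and 676. As for MT2A, the Wee1 inhibitor II arrays stood above all others. The rise was 1.19 ± 0.14 (log2, adjusted p = 0.000585), and with both drugs the gene fell by 1.63 ± 0.12 from there (adjusted p = 9.55e-05). The second MT1X probe set, the one resting on MT1L, rose by 0.62 ± 0.18 when every probe set was tested (adjusted p = 0.0458), with 847, 1299 and 1021 against 708 and 650 in control.

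MT1H, one of the inducible MT1 isoforms, had the largest fold change among the members with Wee1 inhibitor II. Its signals were 235 and 338 in control and 977, 909 and 1283 with the inhibitor. They were 287, 300.2 and 140 with 17-AAG and 334, 259 and 249 with both drugs, so these groups overlapped control. The log2 fold change against control was 1.89 ± 0.35 (adjusted p = 0.00535), and with both drugs the gene fell by 1.91 ± 0.31 from the level with the inhibitor (adjusted p = 0.00467).

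MT1G, another MT1 isoform, had 258 and 233 in control, 369, 596 and 606 with Wee1 inhibitor II, 221, 181.5 and 202 with 17-AAG, and 209, 215 and 171 with both drugs. The lowest inhibitor array was still above both controls (log2 fold change 1.06 ± 0.22, adjusted p = 0.00989). The dim second MT1G probe set gave -1.07 ± 1.28. Without control replicate 3 the call for MT1G was lost (0.99, adjusted p = 0.0676), as it was with control replicate 2 included (0.85, adjusted p = 0.078) and in a fit of these arrays alone (adjusted p = 0.0867). With its probe sets averaged the value was -0.0058 (adjusted p = 0.996).

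MT1E had 93.8 and 123 in control, 192, 227 and 189 with Wee1 inhibitor II, 103, 121 and 104 with 17-AAG, and 108, 146 and 133 with both drugs. The inhibitor arrays lay above all others, and the combination arrays at 146 and 133 lay between them and the control and 17-AAG arrays. The rise was 0.91 ± 0.17 (adjusted p = 0.00629), the smallest of the 5, and it was no longer called without control replicate 1 (0.71, adjusted p = 0.0524), with control replicate 2 included (0.66, adjusted p = 0.147) in a fit of these arrays alone (adjusted p = 0.0521) or with its probe sets averaged (0.56, adjusted p = 0.124). The dimmer MT1E probe set stood at 0.21 ± 0.29 (adjusted p = 0.703).

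MT1F had 259 and 198 in control, 335, 393 and 238 with Wee1 inhibitor II, 119, 182 and 134 with 17-AAG, and 152, 119 and 189 with both drugs. The inhibitor and control arrays overlapped, and the difference did not pass (0.48 ± 0.29, adjusted p = 0.300). The dimmer MT1F probe set was called in no comparison, and for this one it gave 0.61 ± 0.44 (adjusted p = 0.432 over all probe sets). MT1M, at 7.66 and 5.84 in control and 0.744 to 4.38 on the treated arrays, was below the array medians throughout. Its call as lower with 17-AAG (-2.90 ± 0.76, adjusted p = 0.0356) was a difference between such signals, and it was 0 with signals below 32 set to 32. It was kept only without combination replicate 1 or 2 or Wee1 inhibitor II replicate 2 or 3, and lost when any 1 of the 7 other arrays was left out (-3.09 to -2.70 over all 11).

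**Figure D2:**
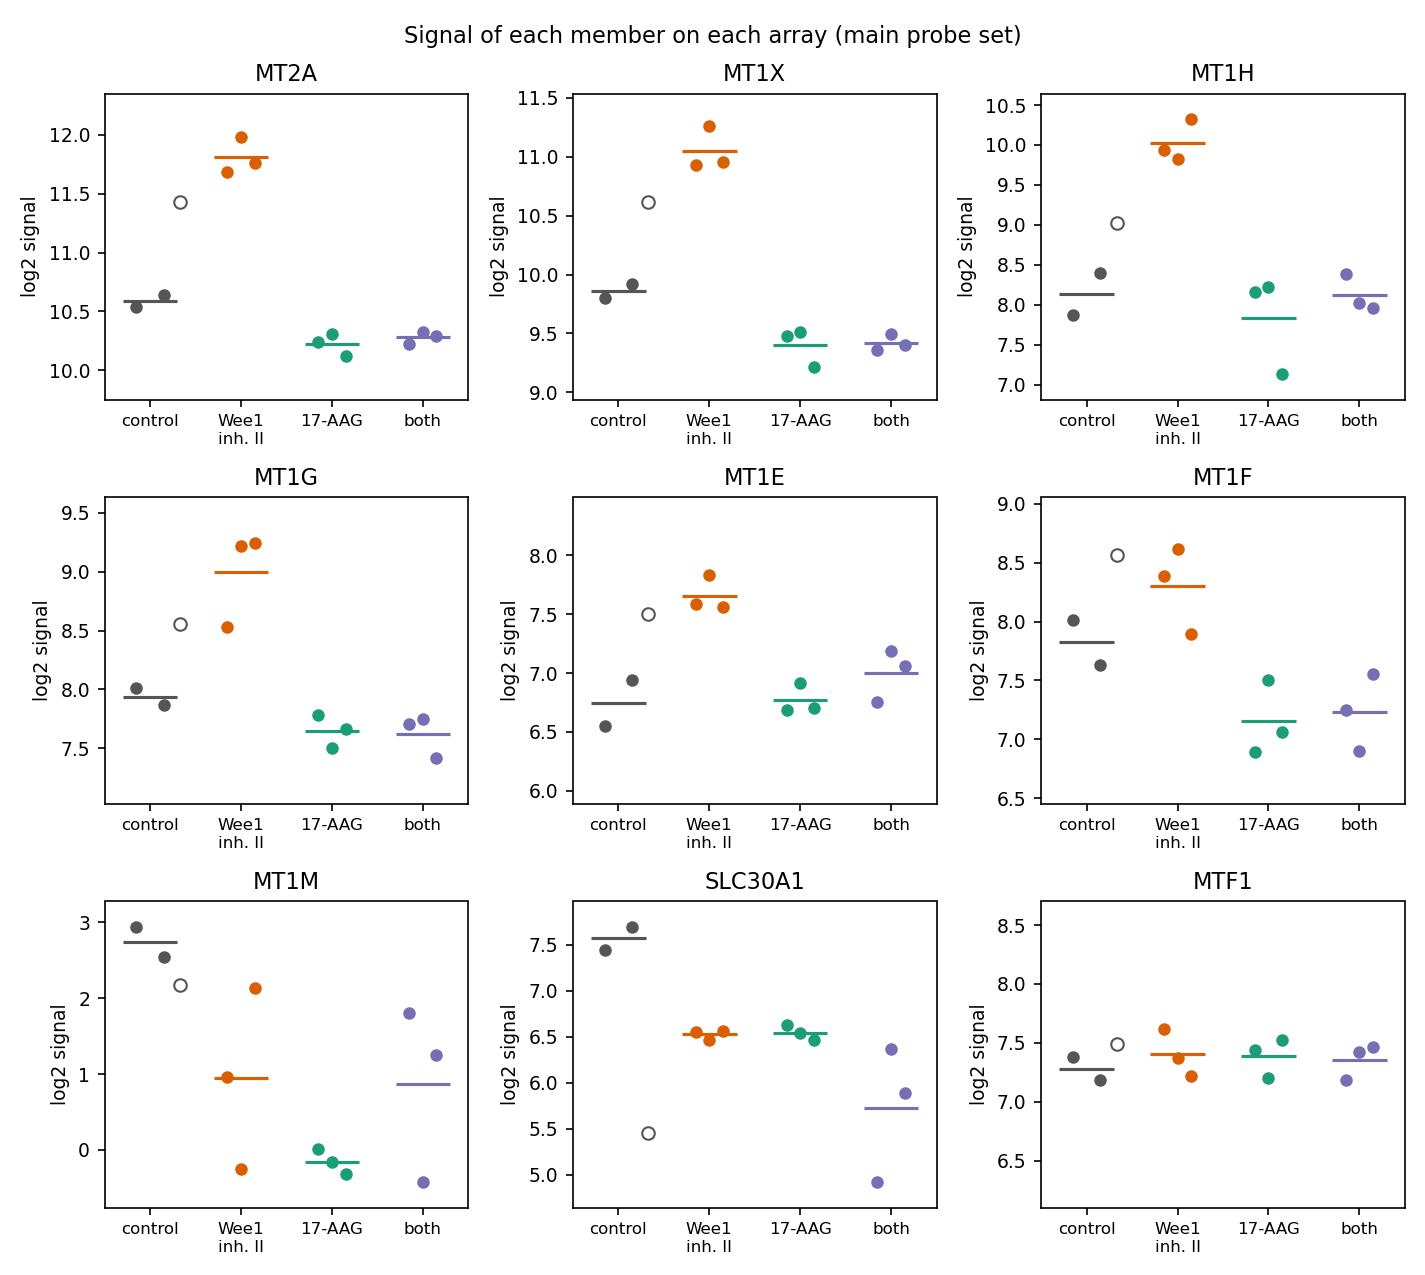
Log2 signal of the main probe set of each member on each array, with 1 panel a gene, filled points for the 11 arrays compared, bars for group means and an open point for control replicate 2, which was left out. The 3 arrays with Wee1 inhibitor II lie above all others compared for MT2A, MT1X, MT1H, MT1G and MT1E, all treated arrays lie below control for SLC30A1, and the groups overlap for MTF1.

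17-AAG alone left the bright metallothioneins near or somewhat below control. The one member called of 9 was the dim MT1M, which fell, where 16.7% of all genes were called, 9.93% rising and 6.80% falling. MT2A stood at -0.36 ± 0.11 (adjusted p = 0.0605), MT1X at -0.46 ± 0.14 (adjusted p = 0.0538) and MT1F at -0.67 ± 0.29 (adjusted p = 0.171), each with all 3 arrays below both controls. MT1G (-0.29), MT1H (-0.30) and MT1E (0.02) did not pass either. The dimmer MT1F probe set gave 0.16 ± 0.44 (adjusted p = 0.884 over all probe sets), opposite in sign to the main one. MT2A and MT1X passed without Wee1 inhibitor II replicate 2, the array with their highest signal, which only changes the estimate of spread (adjusted p = 0.0393 and 0.0362).

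With both drugs, 2 of 9 members fell against control and none rose, where 28.0% of all genes were called, 16.7% rising and 11.3% falling. They were SLC30A1 and MT1X (-0.44 ± 0.14, adjusted p = 0.0427). The MT1X call was kept only without Wee1 inhibitor II replicate 2 or 17-AAG replicate 2 or 3, and lost when any 1 of the 8 other arrays was left out (-0.50 to -0.38 over all 11), and it was lost with its probe sets averaged (-0.30, adjusted p = 0.231). The other metallothioneins stood between -1.87 (MT1M) and 0.25 (MT1E) with adjusted p of 0.0755 or more. Against 17-AAG alone no member was called in limma, where 10.9% of all genes rose and 8.43% fell (19.3% in all), and 1 member, SLC30A1, had an unadjusted p under 0.05. MT2A differed there by 0.05 ± 0.10 (95% interval -0.17 to 0.28) and MT1X by 0.02 ± 0.12 (-0.26 to 0.30), intervals that leave out the rise seen with the inhibitor alone.

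The comparison of both drugs with Wee1 inhibitor II alone gives the difference that, by the labels, went with adding 17-AAG. In it 6 of 9 members fell and none rose, where 14.1% of all genes were called, 7.27% rising and 6.84% falling. Beside MT2A, MT1X and MT1H these were MT1G (-1.37 ± 0.20, adjusted p = 0.00269), MT1F (-1.06 ± 0.26, adjusted p = 0.0285) and MT1E (-0.66 ± 0.16, adjusted p = 0.0256). For each of the 6, picked by this same comparison, all combination arrays lay below all inhibitor arrays, which is a description and not further support. The MT1F call was lost without replicate 1 or 2 of either of these groups (-1.07 to -0.89). The MT1E call was lost when any 1 of the Wee1 inhibitor II arrays, or combination replicate 1 or 3, was left out (-0.71 to -0.53). With probe sets averaged per gene the calls of MT1G (0.087), MT1F (-0.78) and MT1E (-0.51) were lost, and with control replicate 2 included those of MT1F and MT1E (adjusted p = 0.14 and 0.276).

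Between the single drugs, 6 of 9 members, the metallothioneins other than MT1M, were higher with Wee1 inhibitor II than with 17-AAG and none was lower. Of all genes 18.7% were called there, 10.2% higher and 8.52% lower. MT1H differed by 2.19 ± 0.31 (adjusted p = 0.00208), MT1X by 1.65 ± 0.12 (adjusted p = 8.69e-05) and MT2A by 1.58 ± 0.10 (adjusted p = 4.15e-05). MT1G (1.35 ± 0.20), MT1F (adjusted p = 0.017) and MT1E (0.89 ± 0.16) passed too. The MT1F call was lost without Wee1 inhibitor II replicate 1 or 2 or 17-AAG replicate 1 or 3 (0.99 to 1.10). With probe sets averaged per gene the calls of MT1G (0.31), MT1F (0.80) and MT1E (0.63) were lost, and with control replicate 2 included those of MT1F and MT1E (adjusted p = 0.0948 and 0.0987).

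The interaction asks whether 17-AAG acted differently in the presence of Wee1 inhibitor II than in its absence. It was called for 2 of 9 members, both below 0, where 11.8% of all genes were called, 4.82% above and 6.97% below 0. For MT2A it was -1.17 ± 0.15 (adjusted p = 0.00292): both drugs together gave 2.25-fold less signal than the product of the single effects. For MT1X it was -1.17 ± 0.18 (adjusted p = 0.00621). With control replicate 2 included neither passed (MT2A -0.89, adjusted p = 0.272, and MT1X -0.92, adjusted p = 0.244), and with its probe sets averaged MT1X did not (-0.73, adjusted p = 0.0813). MT1H (-1.61 ± 0.47, adjusted p = 0.0628), MT1G (-1.09 ± 0.30, adjusted p = 0.0539) and MT1E (-0.68 ± 0.23, adjusted p = 0.108) had values below 0 that did not pass. MT1G passed without Wee1 inhibitor II replicate 1 (-1.32, adjusted p = 0.0104) and MT1H without 17-AAG replicate 3 (-1.97, adjusted p = 0.0151).

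**Figure D3:**
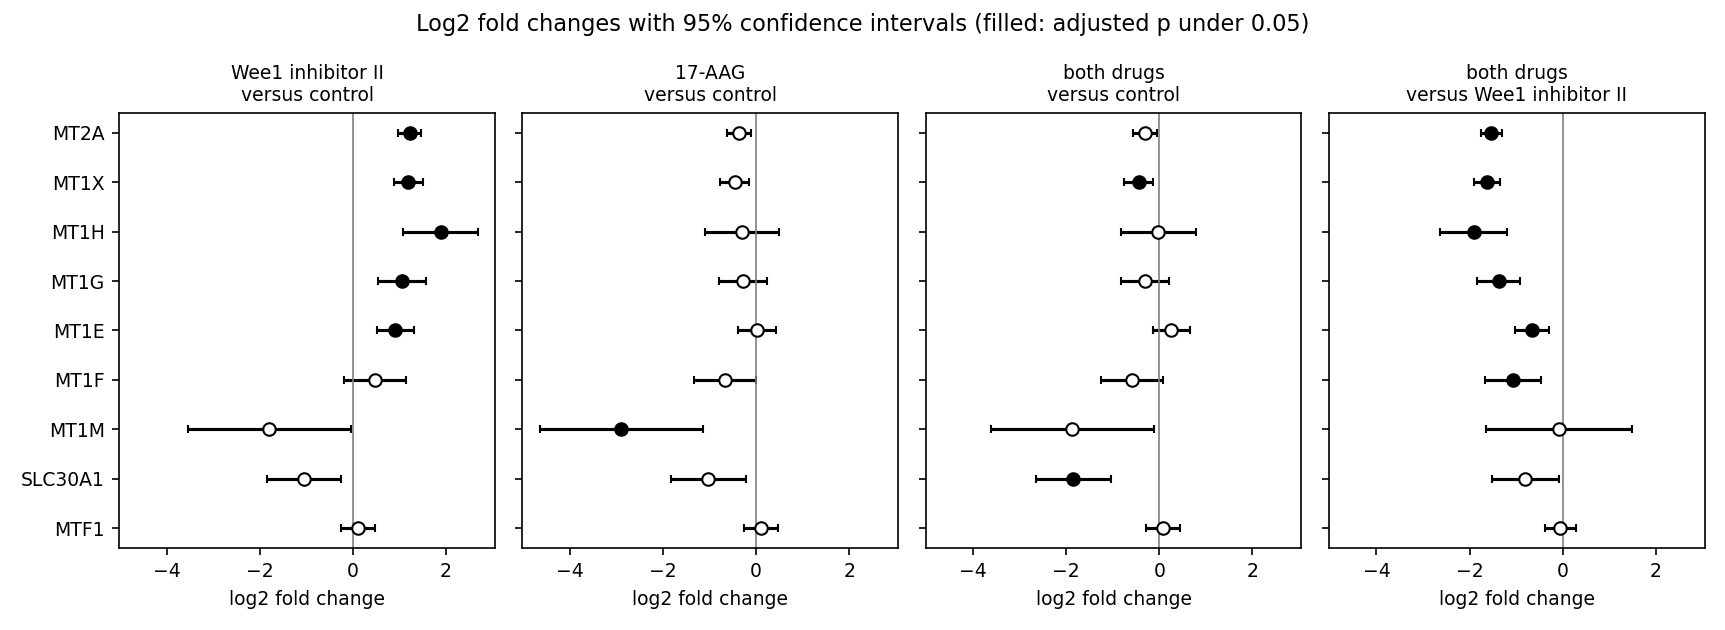
Log2 fold change of each member with its 95% confidence interval in 4 comparisons, filled where the adjusted p was under 0.05. The metallothioneins MT2A, MT1X, MT1H, MT1G and MT1E lie to the right of 0 with Wee1 inhibitor II and near or below 0 in the panel of both drugs against control, and SLC30A1 lies to the left of 0 in every panel.

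Other measures moved along with these differences. The summed signal of the 7 pigment cell markers was 26137 to 28737 with Wee1 inhibitor II, 32440 to 34114 in control, 40422 to 45793 with 17-AAG and 48057 to 49448 with both drugs, so it was lowest where the metallothioneins were highest. Of those 7 markers 4 fell and 1 rose with Wee1 inhibitor II. The summed fibroblast markers were also lowest there (430 to 477, against 1084 to 1224 in control). The gap between the ACTB probe sets of the 3-prime and 5-prime ends, a sign of RNA integrity, was 0.69 ± 0.03 (log2, SD, n = 2) in control and 0.68 ± 0.09 (n = 3) with Wee1 inhibitor II. With 17-AAG it was wider, 0.96 ± 0.08 (n = 3), and the combination gave 0.96 ± 0.05 (n = 3). The part of these measures in the differences of the metallothioneins and of SLC30A1 was not tested.

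SLC30A1 was the member with the clearest fall with both drugs, and on its main probe set the single-drug arrays lay between those of control and the combination. Its signals were 174 and 207 in control, 93.6, 88.7 and 94.7 with Wee1 inhibitor II, 99.0, 93.4 and 88.3 with 17-AAG, and 30.3, 82.4 and 59.4 with both drugs. All 9 treated arrays lay below both controls, the single-drug groups overlapped, and the combination arrays lay below all single-drug arrays. With both drugs the gene fell by 1.84 ± 0.35 against control on the log2 scale (adjusted p = 0.00472), that is 3.59-fold. This call held with each array left out in turn (-2.16 to -1.44), and was lost with control replicate 2 included (-1.14, adjusted p = 0.242) and in a fit of control and combination arrays alone (adjusted p = 0.0747). The second probe set fell by 1.84 ± 0.40 (adjusted p = 0.0131 over all probe sets), and the third was too dim to read, at most 1.48. On the second probe set the combination arrays (23.6, 9.52 and 26.2) overlapped the 17-AAG arrays (28.1, 21.3 and 23.5). The difference between these groups was -0.42 ± 0.36 there (adjusted p = 0.533). The combination arrays lay below the Wee1 inhibitor II arrays on it (26.4 to 36.3).

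The single drugs gave about equal values for SLC30A1 that did not pass: -1.04 ± 0.35 with Wee1 inhibitor II (adjusted p = 0.0628) and -1.02 ± 0.35 with 17-AAG (adjusted p = 0.0866). The spread of the combination arrays bears on this. Without combination replicate 1, the lowest array on the main probe set, both passed (adjusted p = 0.0037 and 0.00764), and without combination replicate 2 likewise (adjusted p = 0.0255 and 0.0388). The interaction was 0.22 ± 0.47 (95% interval -0.85 to 1.29). The combination against 17-AAG alone gave -0.82 ± 0.31 (adjusted p = 0.112), and against Wee1 inhibitor II alone -0.80 ± 0.31 (adjusted p = 0.144). Both of these passed without combination replicate 2, the highest of its group on the main probe set (-1.14, adjusted p = 0.0281, and -1.12, adjusted p = 0.0348). On the second probe set that array was the lowest of its group, at 9.52 against 23.6 and 26.2. Across the 11 arrays SLC30A1 followed MT2A little (r = 0.165).

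MTF1 transcript showed no difference that passed in any of the 7 comparisons run. Its signals were 166 and 145 in control, 197, 166 and 149 with Wee1 inhibitor II, 174, 147 and 184 with 17-AAG, and 145, 171 and 177 with both drugs, and all groups overlapped. Against control it stood at 0.12 ± 0.16 with Wee1 inhibitor II (95% interval -0.24 to 0.49), 0.11 ± 0.16 with 17-AAG (-0.26 to 0.47) and 0.08 ± 0.16 with both drugs (-0.29 to 0.44). MTF1 acts through its protein's zinc binding and location, which arrays do not measure. A further MTF1 probe set stood at 0.54 ± 0.19 with both drugs (adjusted p = 0.0854), and the third gave 0.10 ± 0.25.

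**Figure D4:**
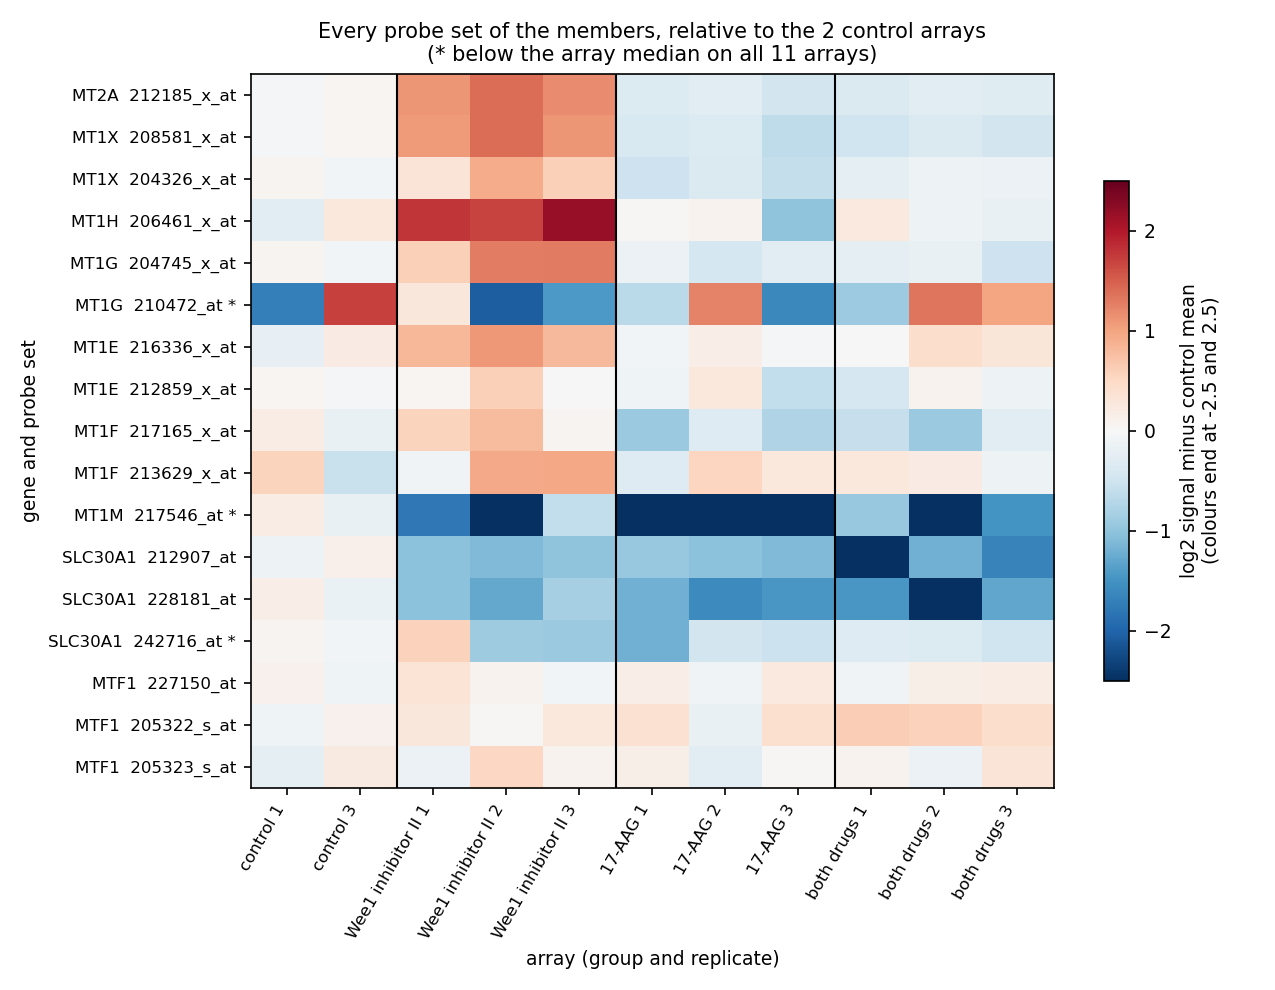
Log2 signal of all 17 probe sets of the members on the 11 arrays, each minus its own mean over the 2 control arrays, with colours that end at -2.5 and 2.5 and a star for probe sets below the array median on all 11 arrays. The main MT2A, MT1X, MT1H, MT1G and MT1E probe sets are above control on the 3 Wee1 inhibitor II arrays, while 2 SLC30A1 probe sets are below it on all treated arrays.

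Of 11 further metallothionein genes and pseudogenes 3 were measured. MT1HL1, a processed copy of an MT1 gene outside the cluster, gave 976 and 823 in control and 1859, 2566 and 2002 with Wee1 inhibitor II (1.24 ± 0.20, adjusted p = 0.0027) through another _x_at probe set. It fell back to 611, 828 and 680 with both drugs. MT3, the brain form, and MT4, the form of stratified epithelia, had signals of at most 32.7 and 10.4.

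Of 14 measured genes of the SLC39 family, which bring zinc into the cytosol, 5 fell and 1 rose with Wee1 inhibitor II (10.3% and 14.5% of all genes), and the list's median was -0.23 against 0.12. The clearest was SLC39A8, also named ZIP8, a carrier of zinc and manganese. Its signals were 1084 and 955 in control, 282, 281 and 279 with Wee1 inhibitor II, 1079, 1028 and 1158 with 17-AAG, and 361, 315 and 337 with both drugs. Every array with the inhibitor lay below every array without it (-1.86 ± 0.10, adjusted p = 3.09e-05, for the inhibitor alone). SLC39A10, a surface importer, fell from 3056 and 3139 in control to 1927, 1584 and 1861 (adjusted p = 0.00108), and SLC39A7, which releases zinc from the endoplasmic reticulum, changed by -0.72 ± 0.15 (adjusted p = 0.00957). SLC39A11 rose in all 3 treated groups and most with both drugs: 55.3 and 78.9 in control against 223, 215 and 269. With 17-AAG it was the only one of the 14 called.

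The other zinc transporters of the SLC30 family load zinc into vesicles and organelles or export it. Of 9 measured, 2 rose and 2 fell with Wee1 inhibitor II, 1 rose and 1 fell with 17-AAG, and 4 rose and none fell with both drugs (16.7% of all genes rose). SLC30A9, which serves zinc balance in mitochondria, rose in each treated group, by 0.59 ± 0.08 with both drugs (adjusted p = 0.0012). SLC30A4 rose from 136 and 150 in control to 257, 199 and 226 with the inhibitor (adjusted p = 0.0127).

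Of 13 copper handling genes 6 fell and 1 rose with Wee1 inhibitor II, 2 fell and 2 rose with 17-AAG, and 4 fell and 4 rose with both drugs, against the shares of all genes given above. ATP7A, the pump that exports copper and loads it onto enzymes, had 284 and 249.97 in control and 137, 144 and 132 with the inhibitor. It had 310.4, 326 and 334 with 17-AAG and 386, 367 and 360.3 with both drugs, so only the inhibitor alone lowered it (-0.95 ± 0.09, adjusted p = 0.000259) and the combination lay above both controls (0.48 ± 0.09, adjusted p = 0.00455). Its interaction passed with a value above 0 (adjusted p = 0.00152), opposite in sign to that of MT2A. SLC31A2, a copper transporter of internal membranes, fell in all 3 treated groups, most with Wee1 inhibitor II (-1.40 ± 0.14, adjusted p = 0.000345), and COX11, which serves copper insertion into cytochrome oxidase, fell there as well (-0.65, adjusted p = 0.00287). COMMD1, a regulator of copper export, was the one that rose (0.74, adjusted p = 0.00279).

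Genes of the response to metals and oxidants, many of them induced through the factor NRF2, moved in both directions. Of 16 measured, 5 rose and 5 fell with Wee1 inhibitor II (14.5% and 10.3% of all genes). HMOX1, the heme-degrading enzyme that cadmium and other metals strongly induce, fell from 255 and 235 to 121, 132 and 158 (-0.84 ± 0.16, adjusted p = 0.00671). GCLM and SRXN1, of glutathione synthesis and peroxiredoxin repair, fell too (-0.64 and -0.68, adjusted p = 0.00159 and 0.00152). NQO1, a quinone reductase, rose from 4357 and 4613 to 6270, 6366 and 6563 (adjusted p = 0.00193), and NFE2L2, which codes for NRF2 itself, rose by 0.70 ± 0.11 (adjusted p = 0.00265). With 17-AAG 7 of the 16 fell and 1, the cystine transporter gene SLC7A11, rose (6.80% and 9.93% of all genes). With both drugs 6 fell and 3 rose.

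**Figure D5:**
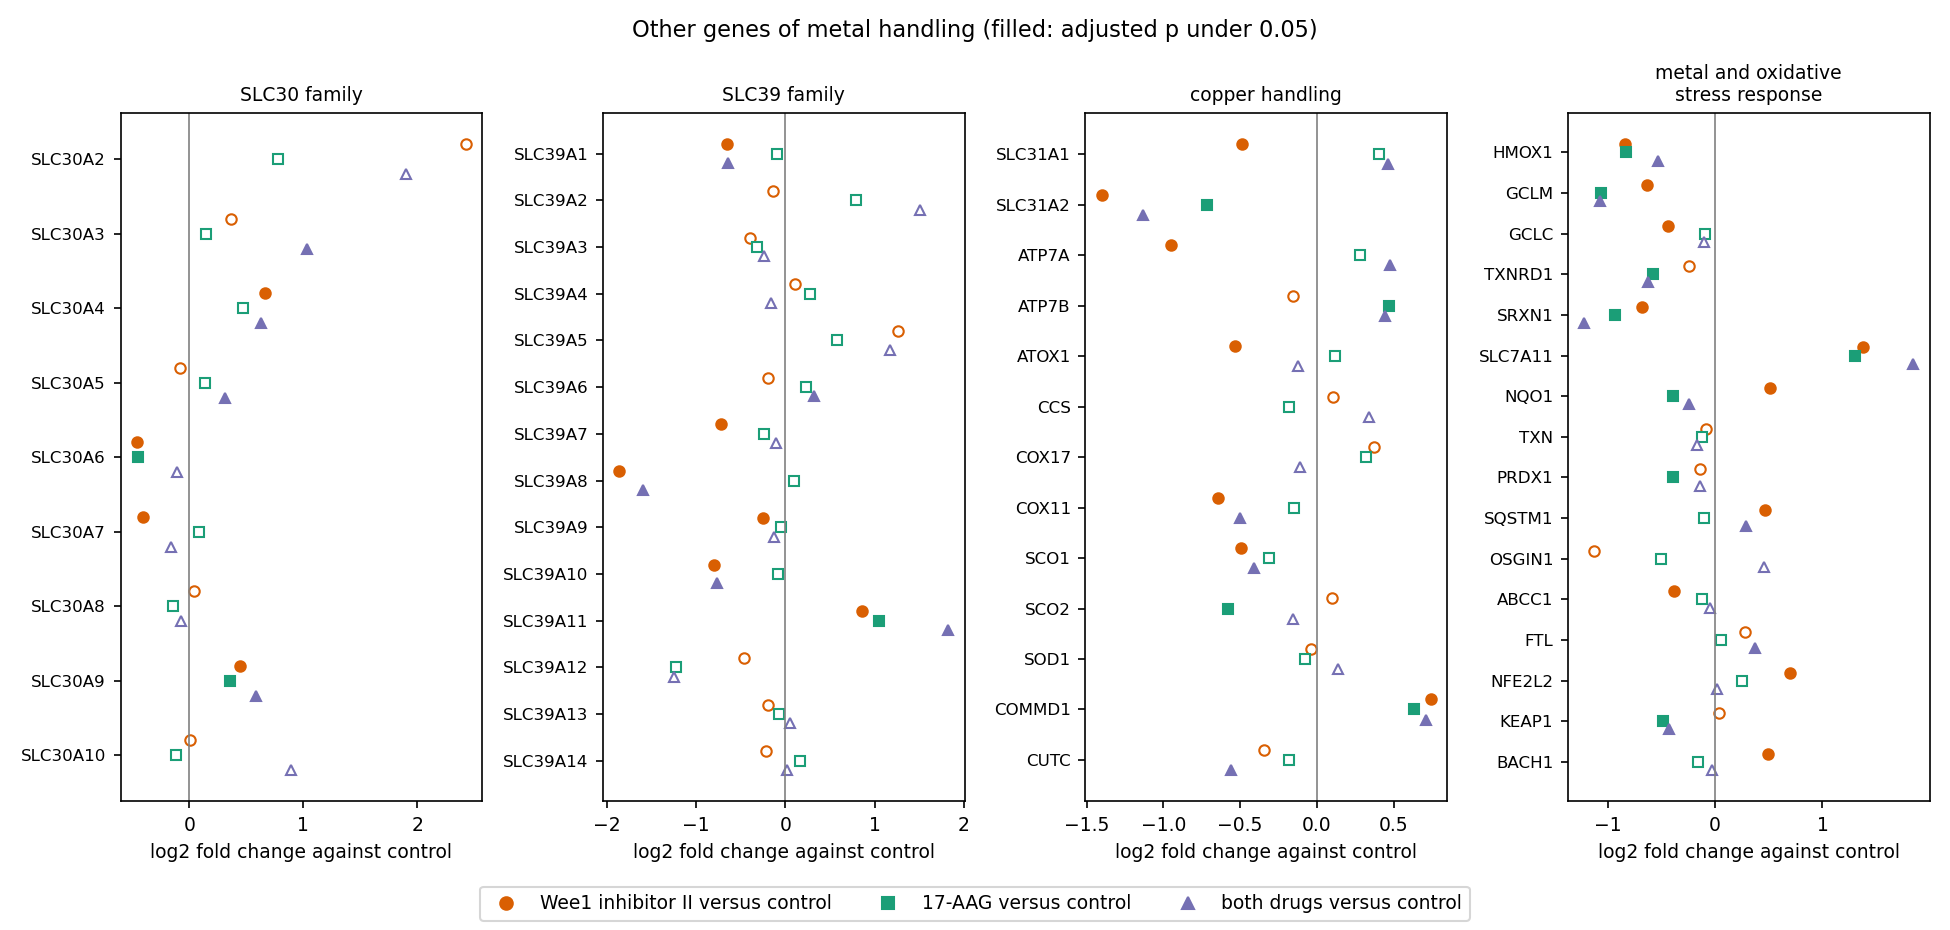
Log2 fold change against control of each measured gene of 4 lists (SLC30 and SLC39 zinc transporters, copper handling, metal and oxidative stress response), circles for Wee1 inhibitor II, squares for 17-AAG and triangles for both drugs, filled where the adjusted p was under 0.05. SLC39A8 lies near -1.86 and -1.59 in the groups with Wee1 inhibitor II, and ATP7A is below 0 with the inhibitor alone only.

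The genes most like MT2A in pattern over the 11 arrays, among 8270 genes with a mean signal of at least 100 and no metallothioneins, were CTNNA1, CCN2, DEPDC7, PALLD and KYNU. Their Pearson's r with MT2A was 0.981 to 0.993, a description over arrays that share 4 groups. CTNNA1, which codes for an adhesion protein of cell junctions, had group means of 2907 in control, 4774 with Wee1 inhibitor II, 2654 with 17-AAG and 2638 with both drugs. DEPDC7 had 324, 1731, 288 and 307 in the same order, and CCN2, which codes for a secreted matrix protein, 104, 341, 86.7 and 96.3. The genes most like SLC30A1 were AEN, NOP58, PAGR1, ING2 and AMOTL1, with r of 0.927 to 0.949. AEN, a nuclease gene that p53 induces, had group means of 246 in control, 135 with Wee1 inhibitor II, 117 with 17-AAG and 71.5 with both drugs.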

How the data were processed

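The deposited values are linear intensity values, 1 per probe set and array, over 54675 probe sets and 12 arrays. Per the submitters' processing notes Partek 6.5 and RMA were used by the authors, with the background correction not given in the sources used here. Every array has the same 2% trimmed mean, while medians differ and values are not on a log scale as RMA output would be. So log2 of the values was taken here with no further normalisation, and control replicate 2 was left out as the submitters did. A further scaling by intensity would move dim genes most.

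Probe sets with 1 symbol (41091, after 62 array controls) were reduced to 19775 genes by the highest mean log2 signal. limma 3.58.1 in R 4.3.3 fitted a mean per group over the 11 arrays (7 residual degrees of freedom, prior 1.12), with Benjamini-Hochberg adjustment of each comparison's p-values over all genes and calls at under 0.05. Errors of fold changes are its standard errors. The procedure was tested on simulated data. The members, gene lists, markers and comparisons were chosen with earlier results of these data known, and DNAJB1 was added after seeing the data. Named beyond the 9 members were genes of the lists with the smallest p among those called, the 5 most correlated genes for MT2A and SLC30A1, and the markers, some left out for length. The 7 comparisons share arrays, control above all. Array numbers limit the precision. Alternatives were control replicate 2 included, array weights, a replicate block, other variance moderation, scaling, dim-gene filters, other uses of probe sets, fewer arrays in the fit, a stricter threshold and each array left out.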

Additional observations from a re-analysis of the deposited data

Results flagged for a closer look

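The effect of 17-AAG differed with and without Wee1 inhibitor II for MT2A (interaction -1.17 ± 0.15, log2, adjusted p = 0.00292 in limma) and MT1X (-1.17 ± 0.18, adjusted p = 0.00621). For both, all 3 combination arrays lay below all 3 inhibitor arrays, which bears only on the effect with the inhibitor. Without it 17-AAG stood at -0.36 ± 0.11 (MT2A) and -0.46 ± 0.14 (MT1X) against control, neither called. With control replicate 2 included neither interaction passed (adjusted p = 0.272 for MT2A and 0.244 for MT1X). The second MT1X probe set gave an interaction of -0.29 ± 0.24 (adjusted p = 0.562 over all probe sets).

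Control replicate 2, which no comparison used, had more signal than both other control arrays for MTF1 and the 6 brighter metallothioneins, whose probe sets can share signal. The share of all genes that did so is not given here. Its array median was 20.7, against 19.3 and 18.4. MT2A had 2750 there against 1486 and 1591, and MT1X 1569 against 892 and 967. MT1H had 523 against 235 and 338, MT1G 376 against 233 and 258, and MT1F 378 against 198 and 259. MT1E had 182 against 93.8 and 123, and MTF1 180 against 145 and 166. SLC30A1 was lower there, at 43.9 against 174 and 207, and so was MT1M at 4.49 against 5.84 and 7.66. CTNNA1 stood at 1.57 on this array, and its summed pigment cell markers at 362, mostly MITF at 303, were below those of the 11 others. The part of these differences in the levels was not tested.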

How the results depend on the processing

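With control replicate 2 included, 3 members were called with Wee1 inhibitor II (MT1E at 0.66 and MT1G at 0.85 were lost) and 0 with 17-AAG, with both drugs and in the interaction. For 17-AAG against control, where 1 member was called, the count was 3 with array weights, 3 with the replicate block, 5 with trended and robust empirical Bayes, 2 with quantile normalization, 0 with arrays centred on their median, 3 without the dimmest 40% of genes, 2 with signals below 32 set to 32, 0 in a fit of only the arrays compared and 0 at an adjusted p under 0.01. For both drugs against control it was 1 instead of 2 with probe sets averaged per gene, with every probe set tested and at 0.01, and 0 with only the arrays compared. Against 17-AAG it was 1 (SLC30A1) instead of 0 with trended and robust empirical Bayes, with centring and without the dimmest 40% of genes. With probe sets averaged per gene, 3 instead of 6 members fell against Wee1 inhibitor II alone, 3 instead of 6 differed between the single drugs, and 1 instead of 2 had an interaction. There MT1G turned to -0.0058 with Wee1 inhibitor II and to 0.087 for both drugs against it, where the average takes in the dim MT1G probe set. The interaction count was 5 with trended and robust empirical Bayes and 5 without the dimmest 40% of genes. The cause of the other changes was not tested. Shares of all genes called under these alternatives are not given here, so these counts cannot be set against them.

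With each array left out in turn, the counts were 4 to 6 for Wee1 inhibitor II, 0 to 3 for 17-AAG, 1 to 3 for both drugs, 0 to 1 for both against 17-AAG, 4 to 6 against Wee1 inhibitor II, 5 to 6 between the single drugs and 2 to 3 for the interaction. Over the 63 member values, 9 of 22 calls held under all alternatives run and each array left out, all of them of MT2A, MT1X or MT1H. MT2A and MT1H had 1 probe set each, so averaging probe sets per gene could not change their fold changes. Calls over all genes against control were fewer whenever a treated array was left out. They were fewer still without a control array, which leaves 1 control array. With a treated array left out, the calls for Wee1 inhibitor II were 4035 to 4891, against 4922 with no array left out. For 17-AAG they were 2158 to 3159 against 3309. For both drugs they were 4681 to 5494 against 5539. How far the member counts above went with such shifts over all genes was not tested. Over all genes, arrays with the same replicate number did not deviate together (correlation of deviations -0.03 to 0.02 over 15 pairs). Such correlations do not settle whether the numbers pair the samples. Replicate 2 was the highest array of each treated group for MT2A, MT1X and MT1E, but not for MT1F, MT1G and MT1H. The replicate block kept the counts in the comparisons other than 17-AAG against control within 1.5 times. The MT1F call against Wee1 inhibitor II was lost with it (adjusted p = 0.0684). Precision rests on 2 control arrays, and MT1M and the dimmest probe sets lie below the array medians, where differences are rough.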
